A study of Mus musculus with 6 samples.

Results

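The proteins that choose and bind splice sites were followed as mRNA in mouse embryonic stem cells treated with SC1. The set held every array probe whose RefSeq mRNA accession belongs to a gene named Srsf with a number, Hnrnp, or Sf3a or Sf3b with a number. It came to 64 of 55681 probes and 39 genes: 19 probes of 10 SR protein genes, 35 probes of 20 hnRNP genes and 10 probes of 9 SF3 subunit genes. The names chose the members, with no use of their signals. Srsf11 and the hnRNP A1-like copies Hnrnpa1l2-ps and Hnrnpa1l2-ps2 match the name pattern, but no probe was matched to them by an mRNA accession.

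All cells were J1, an embryonic stem cell line of the 129S4/SvJae strain, adapted to gelatin without feeder cells. Both groups grew with Knockout Serum Replacement and 1000 U/mL LIF, the cytokine that sustains self-renewal. The SC1 group (n = 3) received 1 µM SC1 for 6 h, and the control group (n = 3) received DMSO for 6 h. SC1, also called pluripotin, is a synthetic small molecule known for supporting self-renewal of mouse embryonic stem cells and for inhibiting RasGAP and ERK1. The results describe a single cell line at a single dose and time. The labels number the samples but do not say that they came from separate cultures, so the p-values describe only how far these samples vary, and that variation may be technical.

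SR proteins carry RNA recognition motifs and a tail rich in arginine and serine, bind exonic enhancers and help recruit the spliceosome to nearby splice sites. Many hnRNPs bind intronic or exonic silencers and can oppose them, and the balance between both families sets the inclusion of many alternative exons. The SF3a and SF3b complexes belong to the U2 small nuclear ribonucleoprotein, which recognises the branch point. Many SR and hnRNP genes also control their own mRNA through alternative exons that lead to decay, so probes of different transcripts of a gene need not move together.

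Each array gave a single-colour processed signal per probe, an intensity in arbitrary units. Its 75th percentile lay between 532.2 and 539 with DMSO and between 443.3 and 493.3 with SC1, so the raw signals quoted here are lower on the SC1 arrays in general. Differences are therefore log2 values, SC1 minus DMSO, after each array was scaled to its 75th percentile, with the standard error (SE) of the limma fit. The adjusted p covers all 35321 probes tested, and a probe was called at an adjusted p under 0.05. All 64 probes stood well above background on all 6 arrays, with signals from 76 to 139797, and none was saturated. All 6 arrays lay on 1 slide with 1 scan. Slide column 1 held the 3 DMSO arrays and SC1 replicate 1, and column 2 held SC1 replicates 2 and 3, so the column moved in part with the treatment.

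The labelled cell type was checked with marker genes. All 10 embryonic stem cell markers were well above background on every array, with a summed scaled level of 683 to 706 with DMSO and 685 to 724 with SC1, in multiples of the 75th percentile. Of 10 embryonic fibroblast markers 8 were above background (summed level 45.6 to 47.5 with DMSO and 44.1 to 49.1 with SC1). These 8 included Col1a1, Col1a2, Col3a1 and Dcn, while Lum and Postn were not above background. All 7 primitive endoderm markers were above background, at 1.02 to 1.09 with DMSO and 1.1 to 1.23 with SC1. Their part in the results was not tested, and in bulk RNA fewer cells of a type and less RNA per cell cannot be told apart.

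With SC1, 21 of the 64 probes fell (32.8%), 4 rose (6.25%) and 39 were not called. Of all probes tested, 36.3% were called, 19.5% lower and 16.8% higher. The members' median difference was -0.12, against -0.01 over all probes tested. Their signals were bright, and among the 6182 other probes whose mean lay between the lower and upper quartile of the members' means, 28.7% were lower and 14% higher, with a median of -0.057. Against those probes, the members' share of lower calls differed by a few points and their share of higher calls was smaller. The distance to the background depended on the setting. With 1 probe per gene 20 of 39 genes were lower (51.3%), beside 25.9% of all genes, and with normexp background correction and 75th percentile scaling 32 of 64 probes were lower (50%), beside 6595 of all 35321 probes.

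The families differed in their counts. Of the SR protein probes 11 of 19 fell and 1 rose (median -0.23). Of the hnRNP probes 5 of 35 fell and 3 rose (median -0.072). The hnRNP share of lower calls, 14.3%, was below the 19.5% of all probes here. It was also below the background with quantile normalization (11.4%, beside 18%) and with the slide column in the fit (8.57%, beside 10.5%). The same held when any 1 array other than SC1 replicate 2 was left out (8.57% to 11.4%, beside 14.6% to 15.6%). Under some other settings the hnRNP share was above the background. It was 40% with normexp and 75th percentile scaling (6595 of all 35321 probes) and 40% with 1 probe per gene (25.9% of all genes). Without SC1 replicate 2, 8 hnRNP probes were lower (22.9%), beside 16.8% of all probes. Of the SF3 probes 5 of 10 fell and none rose by limma, none rose at an unadjusted p under 0.05 either, and the median was -0.11. The difference between the families was not tested. Each family's median stayed below 0 under every scaling and background correction tried, but with spike-in scaling the median of all probes was also below 0 (-0.05). The SF3 count of lower calls depended on the scaling. It was 2 of 10 (20%) with quantile normalization, beside 18% of all probes. With spike-in scaling it was 1 of 10, beside 3762 of all 35321 probes. With normexp it was 5 of 10 after 75th percentile scaling and 4 of 10 after quantile normalization, beside 6595 and 6673 of all 35321 probes.

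With the slide column in the fit, the comparison rests on the arrays of column 1, that is SC1 replicate 1 against the DMSO arrays. Then 10 member probes were lower and 1 was higher, and 5 of the lower probes were SR, 3 hnRNP and 2 SF3. Of all probes 10.5% were then lower and 9.21% higher. With the arrays scaled to their spike-in control RNAs, 7 member probes were lower and 1 was higher, beside 3762 lower and 2843 higher of all 35321 probes. Quantile normalization gave 15 lower (23.4%) and 8 higher (12.5%), beside 18% and 17.9% of all probes. Higher calls then made up 34.8% of the members' calls instead of 16%, and 49.9% instead of 46.3% of all calls.

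**Figure D1:**
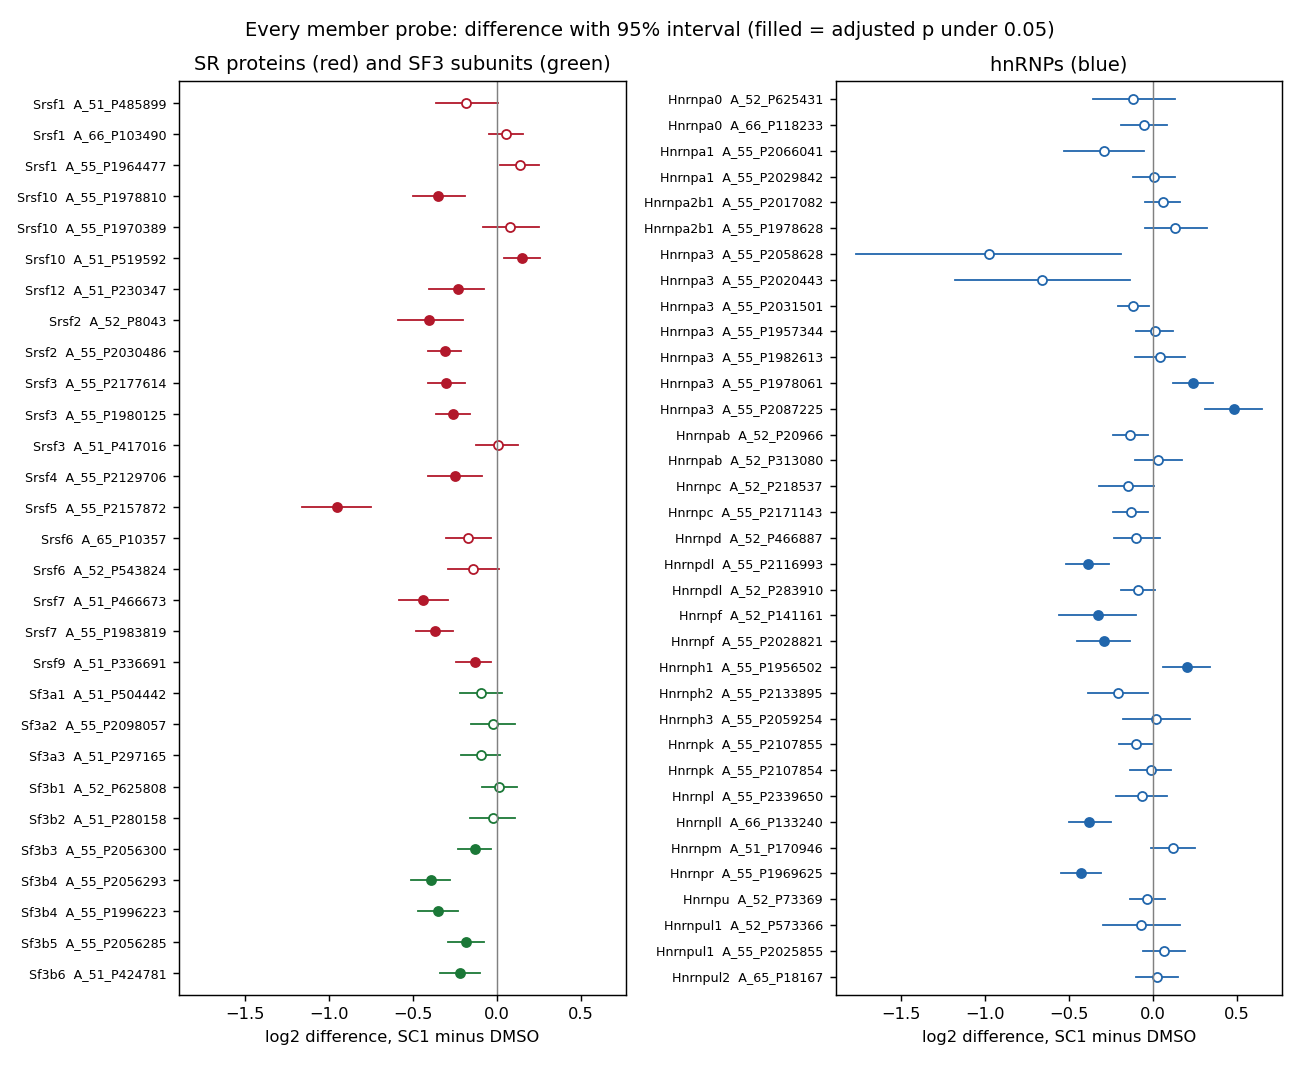
Log2 difference (SC1 minus DMSO, horizontal axis) of each of the 64 probes with its 95% interval, SR proteins in red, SF3 subunits in green and hnRNPs in blue; filled points passed the adjusted p of 0.05. The 12 filled red points lie below 0 apart from a Srsf10 probe at 0.15, and the longest intervals belong to a pair of Hnrnpa3 probes at -0.98 and -0.66.

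Without regard to any threshold, the 3 SC1 values lay below all 3 DMSO values for 35 of the 64 probes and above them for 7, and the groups overlapped for 22. Over all probes tested, 27.5% separated downward and 23.6% upward. Among SR probes 14 separated downward, 3 upward and 2 overlapped. Among hnRNP probes 15 separated downward, 4 upward and 16 overlapped, and among SF3 probes 6 separated downward, none upward and 4 overlapped. By gene, every probe was lower for 13 of the 39 genes, every probe was higher for 1, and no probe was called for 21. Of the 14993 genes with a tested mRNA probe, every probe was lower for 20.3%, every probe was higher for 18.1% and none was called for 52.8%.

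Srsf5, an SR protein with a pair of RNA recognition motifs, had the largest fall among the called probes. Its probe A_55_P2157872 read 22268, 19857 and 18148 with DMSO and 9397, 9383 and 8183 with SC1. The groups were far apart, and relative to the DMSO mean the scaled SC1 values were 0.509, 0.547 and 0.493. The difference was -0.95 (SE 0.0848, adjusted p = 0.000578 by limma), a fall of 48.4%. With the slide column in the fit it was -0.97 (adjusted p = 0.0103).

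Srsf7, which carries a zinc knuckle and takes part in mRNA export, fell at both of its probes. A_51_P466673 read 2762, 2547 and 2617 with DMSO and 1847, 1743 and 1511 with SC1, a difference of -0.44 (SE 0.0601, adjusted p = 0.00294). A_55_P1983819 read 28666, 26533 and 27018 with DMSO and 19233, 18090 and 17819 with SC1, a difference of -0.37 (SE 0.0455, adjusted p = 0.00188). In neither probe did the groups overlap, and the ratio between the probes did not pass the test of unequal change (adjusted p = 0.653). With spike-in scaling the second probe had an adjusted p of 0.0601, while the first stayed below the threshold.

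Srsf2, long known as SC35 and used as a marker of nuclear speckles, also fell at both probes. A_52_P8043 read 8411, 7286 and 7263 with DMSO and 5576, 4590 and 4971 with SC1, a difference of -0.40 (SE 0.08, adjusted p = 0.0118). A_55_P2030486 read 6363, 6302 and 6489 with DMSO and 4802, 4328 and 4289 with SC1, a difference of -0.31 (SE 0.0408, adjusted p = 0.00243). The SC1 values lay below the DMSO values at both probes. With spike-in scaling neither probe passed the threshold (adjusted p = 0.116 at most), and A_52_P8043 did not pass with the slide column in the fit (adjusted p = 0.116).

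Srsf3, a small member of the family and a partner in mRNA export, fell at 2 of its 3 probes. A_55_P1980125 read 27256, 27181 and 26629 with DMSO and 20494, 19072 and 19071 with SC1, a difference of -0.26 (SE 0.0408, adjusted p = 0.00451). A_55_P2177614 went from 25357, 25913 and 24820 to 19294, 17933 and 16597, a difference of -0.30 (SE 0.0445, adjusted p = 0.00398). The third probe, A_51_P417016, carries the same accession, and its groups overlapped with a difference of 0.0061 (95% interval -0.12 to 0.13). The ratio of the third probe to A_55_P1980125 did not pass the test (adjusted p = 0.0586), and with spike-in scaling neither of the lower probes was called. With the slide column in the fit A_55_P1980125 kept its call (adjusted p = 0.0401) and A_55_P2177614 lost it (adjusted p = 0.0508).

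**Figure D2:**
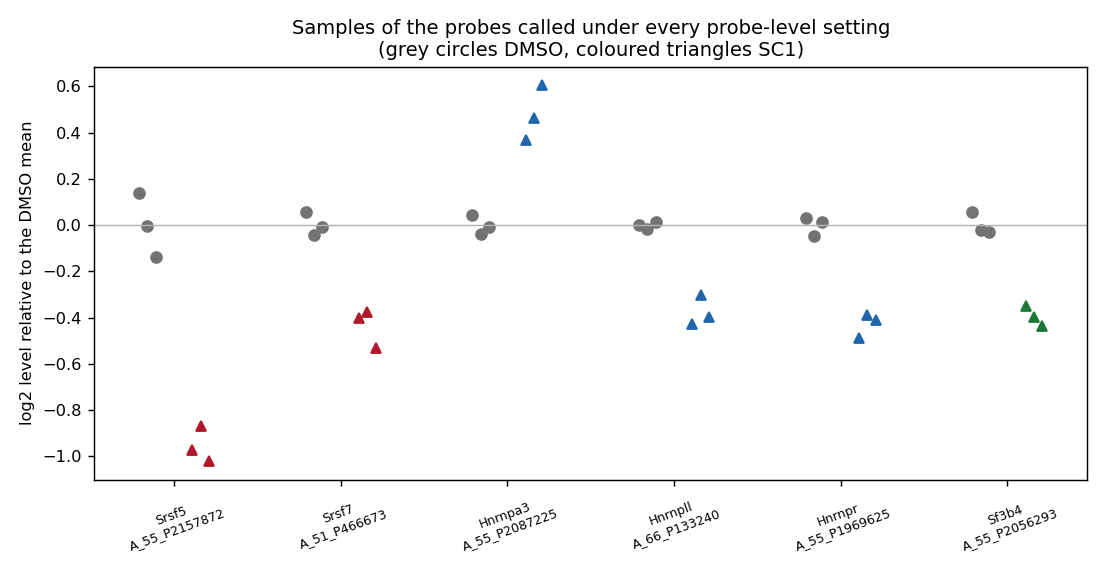
Scaled log2 level of each sample relative to the mean of the DMSO samples (vertical axis) for the 6 probes called under every alternative run on single probes; grey circles are DMSO samples and coloured triangles SC1 samples. The SC1 samples of Srsf5 lie farthest below 0, Hnrnpa3 A_55_P2087225 lies above 0, and no probe shows overlapping groups.

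Srsf4, Srsf9 and Srsf12 had 1 probe each. Srsf4 (A_55_P2129706), a close relative of Srsf5 and Srsf6, had a difference of -0.25 (SE 0.0661, adjusted p = 0.0298). Srsf12 (A_51_P230347) had a difference of -0.23 (SE 0.0656, adjusted p = 0.0364), and its signals were low at 164 to 173 with DMSO and 114 to 142 with SC1. Srsf9 (A_51_P336691) had a difference of -0.13 (SE 0.0414, adjusted p = 0.0494). These calls were made under 7, 8 and 4 of the 18 alternatives for Srsf4, Srsf12 and Srsf9 respectively, and the Srsf9 call was lost when any 1 array was left out. That of Srsf4 was lost without DMSO replicate 1 or 3 or SC1 replicate 1 or 2, and that of Srsf12 without any DMSO array or SC1 replicate 2 or 3.

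The probes of Srsf10, a splicing repressor in its dephosphorylated form, were called in opposite directions. A_55_P1978810, designed to NM_001080387, read 248, 236 and 247 with DMSO and 180, 152 and 169 with SC1, a difference of -0.35 (SE 0.0625, adjusted p = 0.00809). A_51_P519592, designed to NM_010178, read 557, 581 and 584 with DMSO and 597, 547 and 521 with SC1. After scaling its SC1 values were 1.13, 1.11 and 1.1 times the DMSO mean, a difference of 0.15 (SE 0.0448, adjusted p = 0.0419). The other NM_010178 probe, A_55_P1970389, had overlapping groups and a difference of 0.082 (SE 0.0671, adjusted p = 0.392).

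Within each array, the NM_001080387 probe relative to A_55_P1970389 went from 0.976, 1.07 and 0.958 of the DMSO mean to 0.738, 0.692 and 0.801. This change in the ratio was -0.43 (SE 0.0778, adjusted p = 0.0253 over 4765 probe pairs). It missed the threshold with the slide column in the fit (adjusted p = 0.161) and without any 1 array other than SC1 replicate 3 (adjusted p 0.0591 to 0.083). The higher call of A_51_P519592 held under 5 of 18 alternatives and was lost when any 1 array was left out. The lower call of the NM_001080387 probe held under 16.

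Srsf1 and Srsf6, which bind purine-rich and other exonic enhancers, had no called probe. The 3 Srsf1 probes had differences of 0.14, 0.058 and -0.18, with adjusted p of 0.0661, 0.327 and 0.125, and the pair of Srsf6 probes had -0.17 and -0.14, with 0.0592 and 0.144. All 7 SR probes not called had a 95% interval that stayed within 1.3-fold in either direction. The lower count of 11 SR probes was 8 to 9 with 1 array left out, beside 14.6% to 16.8% of all probes. It was 2 of 19 with spike-in scaling (10.5%), namely Srsf5 and Srsf7 A_51_P466673, beside 3762 of all 35321 probes. The SR share of lower calls was then no larger than that of all probes. At an unadjusted p under 0.05 by limma, 7 SR probes were lower with spike-in scaling, beside 6018 of all 35321 probes.

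The promoters of 4 SR genes with lower probes are shown, as the 120 bases before the transcription start in RefSeq (GRCm38.p6), 5′ to 3′ on the gene's strand. Capitals mark the ETS motif CCGGAAG in Srsf5, the CCAAT box in Srsf2 and Srsf3, and no searched motif in Srsf7.
Srsf5, chr12:80945379-80945498, + strand: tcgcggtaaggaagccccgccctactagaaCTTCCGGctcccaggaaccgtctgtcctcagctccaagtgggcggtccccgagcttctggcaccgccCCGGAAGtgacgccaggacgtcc
Srsf7, chr17:80207306-80207425, - strand: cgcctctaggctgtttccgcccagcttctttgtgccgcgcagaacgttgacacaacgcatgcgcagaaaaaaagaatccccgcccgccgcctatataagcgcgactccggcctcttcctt
Srsf2, chr11:116853095-116853214, - strand: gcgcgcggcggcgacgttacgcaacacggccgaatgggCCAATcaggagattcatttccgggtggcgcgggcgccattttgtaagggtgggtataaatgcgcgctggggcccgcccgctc
Srsf3, chr17:29032540-29032659, + strand: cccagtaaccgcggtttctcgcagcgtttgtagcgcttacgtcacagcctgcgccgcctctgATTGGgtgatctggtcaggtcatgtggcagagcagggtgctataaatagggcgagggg
In Srsf5 the ETS letters occur on both strands, since CTTCCGG is the opposite strand of CCGGAAG. In Srsf3 the CCAAT box reads ATTGG and is on the opposite strand. No searched motif is in all 4 stretches.

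The ETS, CCAAT, E-box, CRE and NRF1 motifs were searched on both strands in the windows from 250 bases before to 50 after each start. The table held 47 windows for 35 of the 39 genes, some of them overlapping windows of the same gene. None of the motifs contains another. The ETS motif CCGGAAG was in 15 of the 47 windows (31.9%), against 8.86% of all promoters and 14.9% of those of genes with a tested probe. It was in 9 of 19 windows (6 of 13 genes) of members with a lower probe and in 6 of 22 windows (5 of 20 genes) of members with none called. ETS letters were also in 17.7% of windows of all genes with a lower probe and in 16% of those with none called. The difference between members was not tested.

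The CCAAT box was in 51.1% of member windows and 37.4% of all promoters, in 36.8% of windows of members with a lower probe and in 59.1% of those of members with none called. This difference was not tested either. The E-box CACGTG was in 10.6% of member windows and 7.15% of all. No member window held the CRE TGACGTCA or the NRF1 motif, which were in 1.79% and 0.971% of all promoters. These are matches of letters and do not show binding.

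Among the hnRNPs, Hnrnpr, Hnrnpll and Hnrnpf fell at every probe, Hnrnpdl fell at 1 of 2 probes, Hnrnph1 rose and Hnrnpa3 rose at 2 of 7. Hnrnpr, a relative of the RNA-binding protein Syncrip, read 7007, 6548 and 6848 with DMSO and 4471, 4447 and 4240 with SC1. The groups did not overlap, and the difference was -0.43 (SE 0.049, adjusted p = 0.00146), or 25.7% lower. With the slide column in the fit it was -0.49 (adjusted p = 0.0111).

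Hnrnpll, known for controlling alternative exons of Ptprc in lymphocytes, read 6923, 6732 and 6920 with DMSO and 4707, 4763 and 4318 with SC1. The SC1 values were all below the DMSO values, with a difference of -0.38 (SE 0.0491, adjusted p = 0.00243). Both Hnrnpr and Hnrnpll were called under all 18 alternatives.

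Hnrnpdl is a paralogue of Hnrnpd, a regulator of mRNA decay. Its probe A_55_P2116993 read 34212, 31341 and 30950 with DMSO and 23256, 20839 and 19802 with SC1, a difference of -0.39 (SE 0.0536, adjusted p = 0.00285, and 0.0522 with spike-in scaling). The other probe of the same accession, A_52_P283910, read 5467, 5386 and 5288 with DMSO and 4610, 4335 and 4249 with SC1, a difference of -0.088 (95% interval -0.19 to 0.0096). The change of this second probe relative to the first was 0.31 (SE 0.0605, adjusted p = 0.0346), and it missed the threshold when any 1 array was left out (adjusted p 0.0661 to 0.109).

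Hnrnpf and Hnrnph1 encode related proteins that bind runs of G, and their probes were called in opposite directions. The Hnrnpf probe A_52_P141161 read 2153, 2170 and 2445 with DMSO and 1523, 1718 and 1427 with SC1, a difference of -0.33 (SE 0.0939, adjusted p = 0.0372). The probe A_55_P2028821 had -0.29 (SE 0.0629, adjusted p = 0.0152). Hnrnph1 read 32478, 29700 and 32863 with DMSO and 34451, 29925 and 30604 with SC1, and after scaling its SC1 values were 1.18, 1.1 and 1.17 times the DMSO mean. Its difference was 0.20 (SE 0.0572, adjusted p = 0.0384).

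The calls of this pair of genes were among the less stable ones. The Hnrnph1 call was lost without any of the DMSO arrays, without SC1 replicate 1 or without SC1 replicate 3. That of Hnrnpf A_52_P141161 was lost without any of the same 5 arrays, and that of A_55_P2028821 was lost without DMSO replicate 2 or 3. With the slide column in the fit the adjusted p was 0.122 for Hnrnph1 and 0.0709 and 0.124 for the Hnrnpf probes.

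Hnrnpa3, a relative of the silencer-binding Hnrnpa1, had 7 probes that did not move as one. A_55_P2087225 read 1997, 1866 and 1910 with DMSO and rose to 2293, 2283 and 2416 with SC1, although the SC1 arrays were dimmer. The groups did not overlap, and the difference was 0.48 (SE 0.0691, adjusted p = 0.00346), or 1.39-fold. A_55_P1978061 also rose, by 0.24 (SE 0.0487, adjusted p = 0.0126), but not with spike-in scaling or with the slide column in the fit.

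The Hnrnpa3 probe with the highest signal, A_55_P2031501, read 139797, 137879 and 138890 with DMSO and 117779, 110150 and 106089 with SC1. Its difference was -0.12 (SE 0.0377, adjusted p = 0.0578). Relative to it, A_55_P2087225 changed by 0.60 (SE 0.0729, adjusted p = 0.00797) and A_55_P1978061 by 0.35 (SE 0.0559, adjusted p = 0.0179). All 3 were designed to NM_146130, as were A_55_P1982613 and A_55_P1957344, whose groups overlapped with differences of 0.039 and 0.011.

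The pair of probes designed to the other Hnrnpa3 accession, NM_198090, had the lowest differences of the gene without being called. A_55_P2058628 read 9235, 6610 and 5963 with DMSO and 2434, 4940 and 2590 with SC1, a difference of -0.98 (SE 0.322, adjusted p = 0.0603). A_55_P2020443 read 4760, 3708 and 3376 with DMSO and 2010, 2820 and 1738 with SC1, a difference of -0.66 (SE 0.211, adjusted p = 0.0546). In both, DMSO replicate 1 was the highest sample and SC1 replicate 2 the highest of its group. Without SC1 replicate 2 the differences were -1.31 (adjusted p = 0.0106) and -0.87 (adjusted p = 0.0143), and with spike-in scaling both were called too.

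Hnrnpa1 and Hnrnpa3 have processed pseudogene copies in the mouse genome. The probe sequences were not used here, so how far a probe also binds RNA of such copies was not tested.

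**Figure D3:**
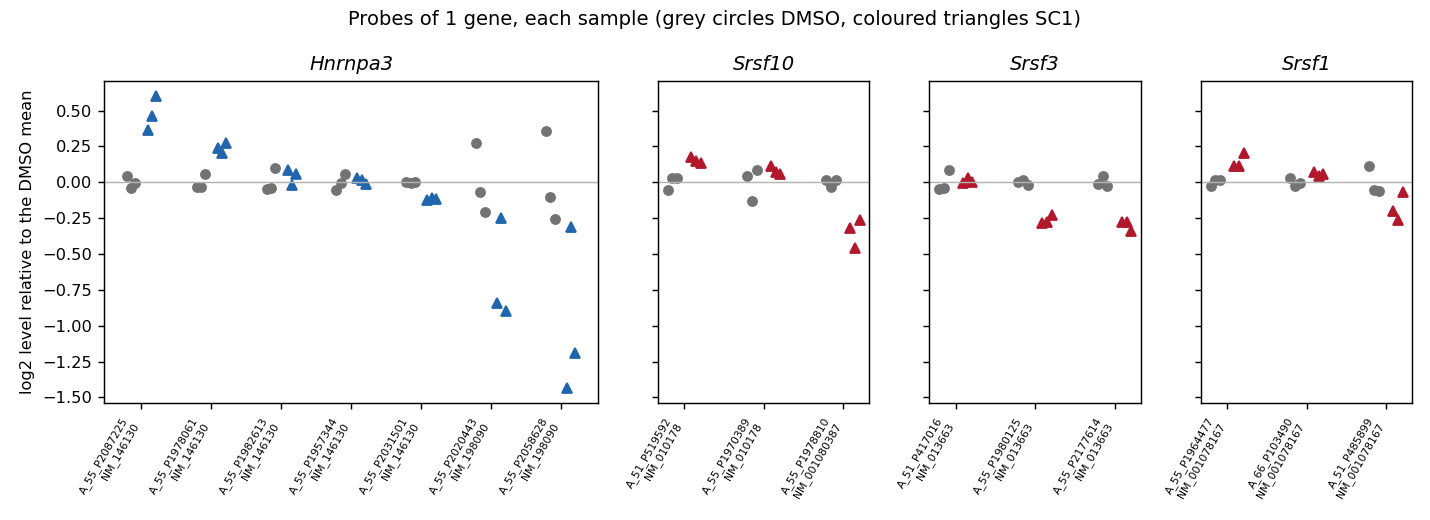
Scaled log2 level of each sample relative to the mean of the DMSO samples (vertical axis) for every probe of Hnrnpa3, Srsf10, Srsf3 and Srsf1, with the accession each probe was designed to; grey circles are DMSO samples and coloured triangles SC1 samples. The Hnrnpa3 probes range from a difference of 0.48 to -0.98, and the Srsf10 probe of NM_001080387 lies below 0 while those of NM_010178 lie near or above it.

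No probe was called for 14 of the 20 hnRNP genes. They include Hnrnpk, Hnrnpu, Hnrnpc and Hnrnpa2b1, which are abundant nuclear RNA-binding proteins. Their differences were -0.014 and -0.10 for Hnrnpk, -0.033 for Hnrnpu, -0.15 and -0.13 for Hnrnpc, and 0.13 and 0.059 for Hnrnpa2b1. Hnrnpa1, which binds exonic and intronic silencers, had -0.29 (adjusted p = 0.0637) at the NM_010447 probe and 0.0065 at the NM_001039129 probe. Of the 27 hnRNP probes not called, 23 had a 95% interval within 1.3-fold in either direction.

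The promoters of Hnrnpr, which fell, and of Hnrnpa3, whose probes diverged, are shown as the 120 bases before the start (RefSeq, GRCm38.p6), with the CCAAT box of Hnrnpr on the opposite strand and the E-box of Hnrnpa3 in capitals. Hnrnpr has another start in the table, which is not shown.
Hnrnpr, chr4:136310822-136310941, + strand: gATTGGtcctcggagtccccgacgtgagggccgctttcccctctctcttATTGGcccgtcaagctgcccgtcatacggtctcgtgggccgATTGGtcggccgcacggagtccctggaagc
Hnrnpa3, chr2:75659139-75659258, + strand: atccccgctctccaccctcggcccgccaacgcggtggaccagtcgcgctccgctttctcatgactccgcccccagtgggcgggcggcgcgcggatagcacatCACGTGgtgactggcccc
The Hnrnpr stretch holds 3 CCAAT boxes, and the E-box of Hnrnpa3 starts 18 bases before the transcription start.

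Of the SF3 subunits in the set, 4 genes of SF3b fell (Sf3b3, Sf3b4, Sf3b5 and Sf3b6). Sf3b1, Sf3b2 and the SF3a genes were not called. The SF3b protein Phf5a lies outside the name pattern and is counted below among the branch point recognition genes. It was lower too, at -0.38 (SE 0.0516, adjusted p = 0.00289 by limma). The complexes were not tested against each other. Sf3b4, which contacts the pre-mRNA near the branch point, fell at both probes. A_55_P2056293 read 797, 749 and 746 with DMSO and 552, 497 and 468 with SC1, a difference of -0.39 (SE 0.0475, adjusted p = 0.00179). A_55_P1996223 read 18076, 16568 and 16849 with DMSO and 12459, 11793 and 10902 with SC1, a difference of -0.35 (SE 0.0489, adjusted p = 0.00317). The groups did not overlap in either, and their ratio did not pass the test of unequal change (adjusted p = 0.668). The first was called under all 18 alternatives and the second under 17.

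Sf3b6, the small subunit next to the branch point adenosine, read 17347, 17377 and 16943 with DMSO and 13743, 12035 and 12783 with SC1, a difference of -0.22 (SE 0.0507, adjusted p = 0.019). Sf3b5 had -0.18 (SE 0.0443, adjusted p = 0.0232) and Sf3b3, a large scaffold subunit, -0.13 (SE 0.0395, adjusted p = 0.0441). The groups of these 3 genes did not overlap either. None of the 3 was called with quantile normalization, with spike-in scaling or with the slide column in the fit. The call was lost for Sf3b3 without any 1 array, for Sf3b5 without DMSO replicate 2 or 3 or SC1 replicate 1 or 2, and for Sf3b6 without DMSO replicate 1 or 2 or SC1 replicate 1.

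The promoter of Sf3b6 is shown because it holds the ETS motif on both strands, as that of Srsf5 does (120 bases before the start, RefSeq, GRCm38.p6, motif in capitals).
Sf3b6, chr12:4817488-4817607, + strand: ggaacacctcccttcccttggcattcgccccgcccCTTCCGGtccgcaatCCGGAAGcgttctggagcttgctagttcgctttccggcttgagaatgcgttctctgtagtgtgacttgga
Sf3b4 and Sf3b5 had no promoter in the table. The ETS letters were also within the 120 bases before the start in Sf3a1, Sf3a2, Sf3a3 and Sf3b2, which were not called. A link between these letters and the fall was not tested.

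Sf3b1, the subunit that clamps the branch site, had a difference of 0.015 (95% interval -0.09 to 0.12). Sf3b2 had -0.022, and the SF3a subunits had -0.093 for Sf3a1, -0.023 for Sf3a2 and -0.093 for Sf3a3. All 5 intervals stayed within 1.3-fold in either direction, from -0.22 at the lowest to 0.12 at the highest.

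Over the genes with several probes, 4 of 25 member probe pairs changed unequally, beside 7.39% of the 4765 pairs on the array. They are the pair of Hnrnpa3 ratios, the Hnrnpdl ratio and the Srsf10 ratio given above. With the slide column in the fit none of the 25 was called by limma, beside 1.15% of all pairs, and 8 had an unadjusted p under 0.05. The count was 1 without DMSO replicate 1, DMSO replicate 2 or SC1 replicate 1, 2 without DMSO replicate 3 or SC1 replicate 3, and 4 without SC1 replicate 2. Those last 4 were not the same pairs: they were the Hnrnpa3 probes A_55_P2087225, A_55_P1978061 and A_55_P2058628 and the Hnrnpa1 probe A_55_P2066041, each against the probe of its gene with the highest signal.

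**Figure D4:**
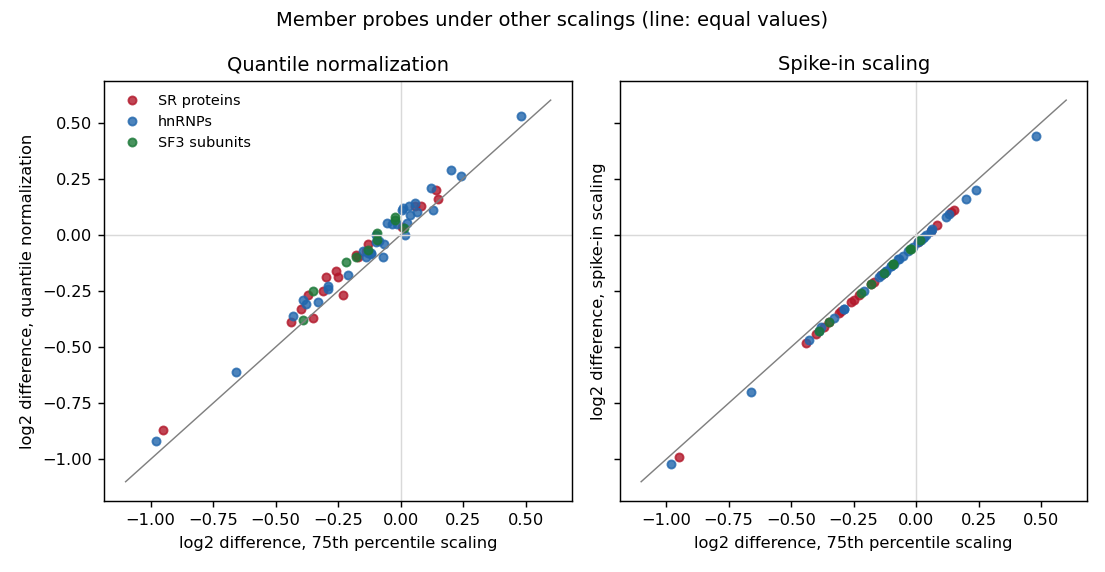
Log2 difference (SC1 minus DMSO) of each of the 64 probes after scaling to the 75th percentile (horizontal axis) against that after quantile normalization (left) or spike-in scaling (right, vertical axes); the line marks equal values. Quantile normalization moved most probes upward, with a member median of -0.07, and spike-in scaling moved them downward, with a median of -0.16, against -0.12.

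The rest of the splicing machinery was read from 7 lists with 1 probe per gene, that with the highest mean signal. Over all 15492 genes so read, 22.9% were lower and 20.5% higher. The Sm, Lsm and other proteins of small nuclear ribonucleoproteins had 12 of 26 genes lower and none higher (median -0.14), and none was higher at an unadjusted p under 0.05 by limma. Snrpd1, a core Sm protein, read 44920, 44989 and 44802 with DMSO and 31052, 31130 and 29290 with SC1, a difference of -0.36 (SE 0.0462, adjusted p = 0.00237). Snrnp35, of the minor spliceosome, had -0.37 (SE 0.0419, adjusted p = 0.00143). The count of 12 was 5 with quantile normalization (19.8% of all genes), 4 with the slide column in the fit (11.7%) and 0 with spike-in scaling (10.3%), where 6 had an unadjusted p under 0.05. With quantile normalization 1 gene of this list was called higher, and 3 were higher at an unadjusted p under 0.05.

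Among the U2 auxiliary factors and related proteins of branch point recognition, 3 of 11 were lower and 1 was higher (median -0.077). U2surp, a U2-associated protein, fell by 0.39 on the log2 scale (SE 0.047, adjusted p = 0.00182), and Zrsr1, a relative of the small U2AF subunit, rose by 0.53 (SE 0.0577, adjusted p = 0.00123). Of the kinases that phosphorylate SR proteins, 3 of 9 were higher and 3 lower (median 0.062). With quantile normalization 3 were higher and none lower, beside 22.9% higher and 19.8% lower of all genes. With the slide column in the fit 1 was higher and none lower, beside 11.5% and 11.7%. With spike-in scaling none was called by limma, beside 9.17% and 10.3%. At an unadjusted p under 0.05, 2, 1 and 0 kinases were lower in these fits and 3, 2 and 1 higher. Clk1 read 3084, 2769 and 2827 with DMSO and 3871, 3222 and 3412 with SC1, a difference of 0.48 (SE 0.0651, adjusted p = 0.00287), and Dyrk1a had 0.29 (SE 0.0479, adjusted p = 0.00593).

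Of 22 SR-related proteins 3 were higher and 2 lower (median -0.079). Srrm4, an activator of neural microexons, was low in signal at 66, 54 and 45 with DMSO and 97, 106 and 100 with SC1, a difference of 1.10 (SE 0.149, adjusted p = 0.00282). Its paralogue Srrm3, also low in signal at 106, 108 and 89 with DMSO and 142, 122 and 123 with SC1, had 0.56 (SE 0.0845, adjusted p = 0.00423). Both had groups that did not overlap.

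Of 37 other splicing regulators 11 were lower and 7 higher (median -0.017). Khdrbs1, the signalling-regulated RNA-binding protein Sam68, read 11204, 10559 and 10473 with DMSO and 5917, 6132 and 5618 with SC1, a difference of -0.66 (SE 0.057, adjusted p = 0.000511). Pcbp1, which binds runs of C, had -0.49 (SE 0.0511, adjusted p = 0.00109). The groups were apart in both.

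Of 30 processing factors and helicases of the spliceosome 6 were lower and 2 higher (median -0.027), with Prpf38b at -0.40 (SE 0.0815, adjusted p = 0.0126) and Crnkl1 at 0.36 (SE 0.0881, adjusted p = 0.0235). Crnkl1 was low in signal, at 76, 66 and 77 with DMSO and 94, 80 and 71 with SC1. Of 14 genes of the exon junction complex and nonsense-mediated decay 3 were higher and 1 lower (median -0.022). Upf1, the helicase of that decay pathway, read 2958, 3044 and 3043 with DMSO and 3880, 3469 and 3389 with SC1, a difference of 0.45 (SE 0.043, adjusted p = 0.000772), and Smg9 had 0.32 (SE 0.0556, adjusted p = 0.00735). Of the 14 genes named from these lists, 14 kept their call with quantile normalization, 11 with the slide column in the fit and 5 with spike-in scaling, namely Srrm4, Srrm3, Khdrbs1, Pcbp1 and Zrsr1. Median differences above 0 with quantile normalization replaced those below 0 for the processing factors, the decay genes, the other regulators and the U2 auxiliary factors.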

How the data were processed

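Spots were quantified with Agilent Feature Extraction 10.7, per the submitters' processing notes. The deposited intensity per spot is a processed, background-corrected signal, per the file headers, with raw median intensities beside it. The authors also deposited a log2 matrix whose method is not given in the sources used here. Its values differed from quantile-normalized log2 signals by a median of 0.0397, and the median of its DMSO replicate 1 column was 5.17. Here the log2 processed signal was averaged over spots of a probe, without the 137 to 201 outlier spots per array, and each array's 75th percentile was subtracted. Probes well above background on all 3 arrays of a group were kept (35321 of 55681). SC1 and DMSO were compared with limma 3.58.1 in R 4.3.3 (two-sided, Benjamini-Hochberg over all probes kept, threshold 0.05). For genes with several mRNA probes, the log2 ratio of each further probe to that with the highest mean was fitted likewise over 4765 pairs.

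Symbols came from RefSeq accessions (26083 of 26536 mRNA probes matched) and promoters from the RefSeq table of GRCm38.p6. The fit was tested on simulated data. Named probes were the 4 called probes with the largest increase and the 4 with the largest decrease per family, at most 1 probe of a gene in each direction, and genes called in opposite directions; of each list, the 2 called genes with the largest change were named. The members, lists and tests were chosen with earlier results of these data known. Protein features were not analysed here.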

Additional observations from a re-analysis of the deposited data

How the results depend on the processing

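The count of 4 higher member probes was 8 with quantile normalization and 8 with the deposited log2 matrix (17.9% of all probes in each). It was 7 with normexp and quantile normalization (6622 of all 35321 probes). It was 2 without a filter (8.62%) and 1 with spike-in scaling (2843 of all 35321 probes). With 1 probe per gene 1 was higher (23.1% of all genes) and 20 lower (25.9%). The higher count was 1 with the slide column as a block (9.21%) and 1 at an adjusted p under 0.01 (9.73%). It was 2 to 3 when 1 array was left out (13.3% to 14.4%). The count of 21 lower probes was 32 with normexp and 75th percentile scaling, beside 6595 of all 35321 probes. It was 12 at an adjusted p under 0.01 and 7 with spike-in scaling, beside 3859 and 3762 of all 35321 probes. It was 10 with the slide column (10.5% of all probes) and 14 to 19 when 1 array was left out (14.6% to 16.8%). The count of 4 unequal probe pairs was 9 with normexp and either scaling (18.9% and 17% of all pairs) and 2 without a filter (3.5%). It was 1 at an adjusted p under 0.01 (2.06%), 0 with the slide column (1.15%), and 1 to 4 when 1 array was left out (3.36% to 5.44%). The cause was not tested. Normexp used the raw median signals, since the files hold no raw mean.

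The deviations of same-numbered samples were hardly correlated (-0.0173, -0.0265 and -0.0186). Those of differently numbered samples had correlations from -0.0402 to 0.0614. With 3 samples per group this cannot show whether the numbers mark paired samples, and the labels do not say. With the replicate number as a block the counts were 2 higher probes (13.6% of all probes) and 15 lower probes (14.9%). None of the 25 member pairs was then called unequal (1.97% of all pairs), and 10 had an unadjusted p under 0.05 by limma. Over 17 alternatives, the 16 named probes gave 272 values, of which 203 kept direction and side of the threshold, 69 lost the call and 0 reversed. The 203 include 17 values of Srsf10 A_55_P1970389, which was not called to begin with and so had no call to lose. Of the 25 called probes, 6 were called under all 18 alternatives. Of all called probes 46.3% were higher, against 59.6% with normexp and 75th percentile scaling. With 3 arrays per group, small differences such as those of the SF3a subunits have only their intervals.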
